A study of Mus musculus with 6 samples.

Results

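The aminoacyl-tRNA synthetases examined here comprised 20 cytosolic enzymes, 16 mitochondrial enzymes and 3 scaffold proteins, 39 genes among the 55421 in the count table. They were taken from a list of gene symbols, and each was matched to its Ensembl gene. Mars1 is listed as Mars in the annotation. The set was selected on the fold changes of knockout against wild type in these same libraries, in which Lars2 had been singled out, so the values of Lars2 are a description and not independent evidence. All 39 genes were among the 13588 that passed the filter on low counts. RNA was sequenced from primary mouse bone marrow-derived macrophages in 6 libraries, 3 per genotype. The knockout cells were Tmem175flox/flox Lyz2-Cre+/-, labelled Tmem175-/-, and the others were WT. TMEM175 is an ion channel of the lysosomal membrane that passes potassium and protons. Cre was expressed from Lyz2, a gene of myeloid cells, and no library carried Cre or the floxed alleles alone, so loss of Tmem175 cannot be told apart from effects of Cre or of the background. Replicates were wells, with no animals named, so the p-values reflect only variation from well to well, possibly of technical origin. The labels give no age and no added agent.

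Each aminoacyl-tRNA synthetase joins an amino acid to its tRNA, the step that sets the genetic code. Cytosolic enzymes serve the ribosomes that translate nuclear genes, and a mostly separate set, encoded in the nucleus and imported, serves the mitochondrial ribosomes that make a few respiratory chain proteins. Glycyl- and lysyl-tRNA synthetase (Gars, Kars) each serve both compartments from a single gene. Glutaminyl-tRNA of mitochondria is made by way of Ears2 and an amidotransferase. Several cytosolic enzymes are held in a multi-synthetase complex by the scaffold proteins Aimp1, Aimp2 and Eef1e1. ATF4, the transcription factor of the amino acid response, is known to induce many cytosolic synthetase genes.

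The promoters were searched for the element that ATF4 binds with C/EBP factors, because the choice of genes did not use it. Promoter sequences (250 bases before to 50 after the start, RefSeq, GRCm38.p6) were matched for 30 of the 39 genes, which were 13 cytosolic, 14 mitochondrial and 3 scaffold genes. The element TGATGNAA, on either strand, was found in 5 of 13 cytosolic promoters (38.5%), in 0 of 14 mitochondrial promoters and in 0 of 3 scaffold promoters. Over all 27025 genes of the promoter table the share was 4.51%. A match is a description of these letters and not a bound site, and the absence of one says only that these letters are not in the window. The 60 bases around each match are given 5′ to 3′ on the strand of the gene, with the matched letters in capitals. In Yars the match reads as spelled above, and in the other stretches it lies on the opposite strand. Aars held 2 matches, and its 2 stretches show the first and then the second match.
Aars chr8:111033704-111033763, + strand: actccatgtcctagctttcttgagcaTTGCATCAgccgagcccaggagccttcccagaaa
Aars chr8:111033825-111033884, + strand: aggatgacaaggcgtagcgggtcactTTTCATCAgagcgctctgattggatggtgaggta
Gars chr6:55037945-55038004, + strand: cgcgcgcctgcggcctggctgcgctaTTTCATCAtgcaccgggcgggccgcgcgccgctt
Iars chr13:49682111-49682170, + strand: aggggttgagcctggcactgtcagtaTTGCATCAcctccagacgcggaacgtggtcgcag
Tars chr15:11399640-11399699, - strand: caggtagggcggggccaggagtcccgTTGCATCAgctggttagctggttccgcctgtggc
Yars chr4:129189880-129189939, + strand: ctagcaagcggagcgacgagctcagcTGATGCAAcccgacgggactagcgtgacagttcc

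Other promoter motifs were found in both compartments, the E-box mostly in cytosolic promoters. The E-box CACGTG, which reads the same on both strands, was found in 4 of 13 cytosolic promoters (Aars, Farsb, Iars and Tars), in 1 of 14 mitochondrial promoters (Ears2) and in 8.09% of all genes. The site of NRF1, a factor of nuclear genes for mitochondrial proteins, was searched as GCGCA and GCGC with any base between them. It was found on either strand in 3 of 13 cytosolic promoters (Farsb, Kars and Tars), in 2 of 14 mitochondrial promoters (Iars2 and Mars2) and in 1 of 3 scaffold promoters (Eef1e1), against 5.19% of all genes. None of the 3 motifs was in the window of Lars2 (chr9:123366677-123366976, + strand). No motif contains another, matches of different motifs may overlap in part, and each gene was counted once per motif.

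Levels were compared between genes per kilobase of exon, as CPM, the count scaled to the TMM-adjusted library total, divided by the union length of the exons. Cytosolic enzymes were the more abundant class. The median over the 20 cytosolic genes was 11.2 to 11.8 CPM per kb in the 6 libraries, and the median over the 16 mitochondrial genes was 2.28 to 2.36 CPM per kb. Nars, which charges asparagine tRNA, was the highest cytosolic gene in WT libraries at 36.8 ± 1.99 CPM per kb (SD, n = 3). Qars (glutamine) at 21.4 ± 0.681 CPM per kb came next, above Hars (histidine) and Gars (glycine), both at 19.9 CPM per kb, and Rars (arginine) at 19.5 CPM per kb. Nars exceeded Qars, and Qars exceeded Hars, by more than their SD, while Hars, Gars and Rars did not differ beyond theirs. The lowest cytosolic gene was Yars, the tyrosine enzyme, at 3.48 ± 0.2003 CPM per kb (SD, n = 3).

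Among the mitochondrial enzymes Lars2, which charges leucine tRNA, stood apart with 36.0 ± 7.22 CPM per kb in WT libraries (SD, n = 3), which differed from that of Nars by less than its SD. Per kilobase of the longest transcript, Lars2 was above Nars, at 102.6 against 58.4 CPM per kb in WT libraries. The next mitochondrial genes in WT libraries were Iars2 (isoleucine) at 6.88 ± 0.381 and Hars2 (histidine) at 6.28 ± 0.147 CPM per kb. The lowest were Mars2 (methionine) at 0.674 ± 0.0719 and Nars2 (asparagine) at 0.642 ± 0.0468 CPM per kb, which did not differ beyond their SD. By the longest transcript the lowest were Mars2 (0.674) and Ears2 (glutamate, 0.880), with Nars2 at 1.18 CPM per kb. In knockout libraries Lars2 still had the highest mitochondrial level, 16.3 ± 1.60 CPM per kb. The part of ribosomal RNA reads in the Lars2 count was not tested, so these are levels of the count. Dividing by the longest transcript instead of the exon union gave medians of 16.7 CPM per kb for cytosolic and 3.64 CPM per kb for mitochondrial genes over all 6 libraries, against 11.5 and 2.31 CPM per kb with the union.

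**Figure D1:**
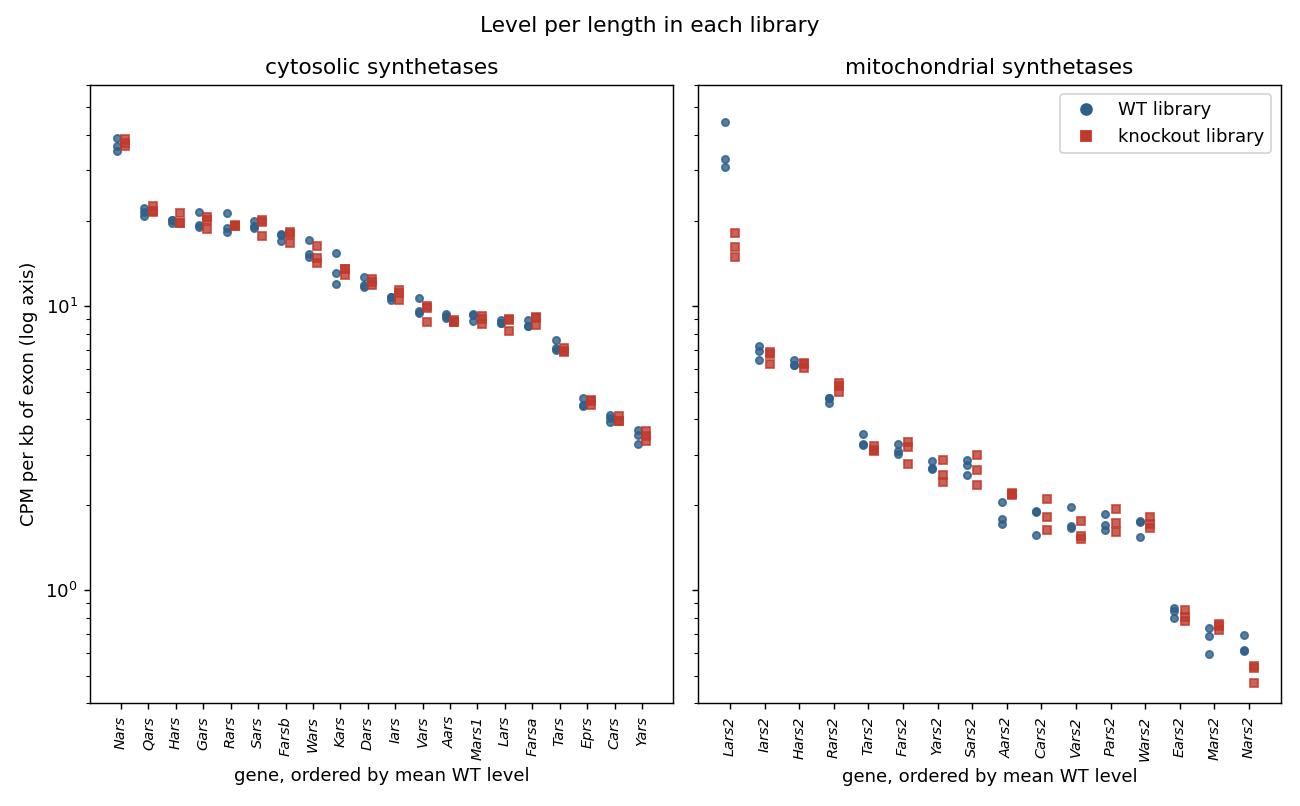
Level of each gene per kilobase of exon in each library (log axis, CPM per kb), by compartment and genotype. Most mitochondrial genes lie below the cytosolic genes, and Lars2 lies among the highest cytosolic genes, with WT libraries (36.0 ± 7.22 CPM per kb) above knockout libraries (16.3 ± 1.60 CPM per kb).

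Pairs of a cytosolic and a mitochondrial enzyme were formed for 14 amino acids. Glutamate and proline, which share the cytosolic enzyme Eprs, were left out. Phenylalanine was paired through Farsa (8.65 CPM per kb in WT libraries) and not through Farsb, the other subunit of that enzyme (17.5 CPM per kb). Of the 14 pairs, 13 had the higher level per length for the cytosolic enzyme, in WT and in knockout libraries and by either gene length. In those 13 pairs the mean ratio by exon union in WT libraries ran from 1.27 for tyrosine (Yars to Yars2) to 57.4 for asparagine (Nars to Nars2), with a median of 4.15. By the longest transcript the lowest was 1.14 for isoleucine (Iars to Iars2), tyrosine was at 2.32 and asparagine, the highest, at 49.4. Leucine was the exception, with the same limit on the Lars2 count. By exon union the ratio of Lars to Lars2 was 0.202, 0.265 and 0.282 in WT libraries 1 to 3 and 0.494, 0.508 and 0.606 in knockout libraries 1 to 3. The ratios of the genotypes did not overlap, and the mean of the log2 ratio was 1.11 higher in the knockout. By the longest transcript its mean was 0.118 in WT and 0.254 in knockout libraries. In the other 13 pairs the same difference lay between -0.31 for alanine and 0.35 for asparagine, with 8 above 0 and 5 below. Of these, 4 had ratios that did not overlap between genotypes, lower in the knockout for alanine, methionine and arginine and higher for asparagine. Over all single genes tested, 5.06% were lower and 5.73% higher without overlap, and the share over ratios of other gene pairs was not computed.

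**Figure D2:**
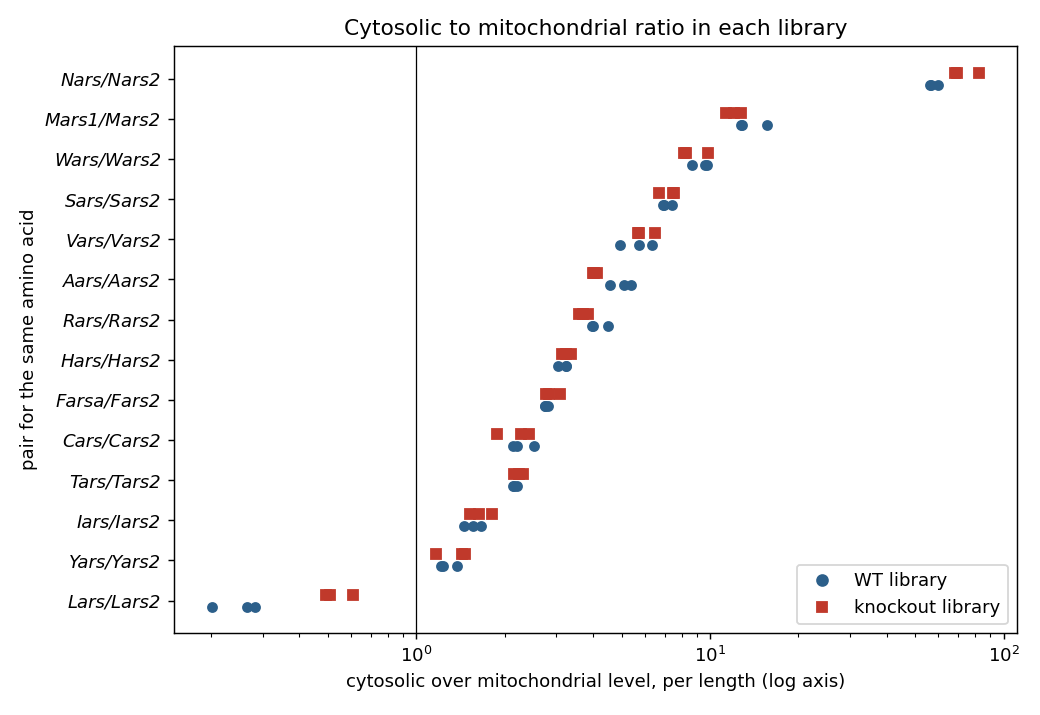
Ratio of the cytosolic to the mitochondrial enzyme for 14 amino acids, per kilobase of exon, in each library (log axis), with genotypes marked. Glutamate and proline are left out, and phenylalanine is shown with Farsa. The leucine pair lies below 1 in all 6 libraries, at 0.249 ± 0.0423 in WT and 0.536 ± 0.0612 in knockout (SD, n = 3 each), and the other 13 pairs lie above 1.

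The comparison of knockout with WT asked which genes differ when Tmem175 is deleted in macrophages. Of the 39 genes, 1 was called lower (Lars2) and 0 were called higher by edgeR's quasi-likelihood test at a Benjamini-Hochberg adjusted p under 0.05 over all 13588 genes. Over all genes, 0.0883% were called lower and 0.0147% higher, 0.103% in all. DESeq2 and limma-voom also called 0 members higher. At an unadjusted p under 0.05, 1 member was higher (Aars2) and 2 were lower (Lars2 and Nars2), against 2.4% and 3.04% of all genes. Libraries of the genotypes did not overlap for 2 members higher in the knockout (Aars2 and Rars2), against 5.73% of all genes, and for 4 lower (Lars2, Nars2, Tars2 and Aars), against 5.06%. The median log2 fold change (knockout over WT) over the 39 genes was -0.01, with 17 above 0 and 22 below, and 35 of the 39 lay within 0.2 of 0. Over all 13588 genes tested the median was -0.00090, 49.6% lay above 0, and 10982 lay within 0.2 of 0.

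**Figure D3:**
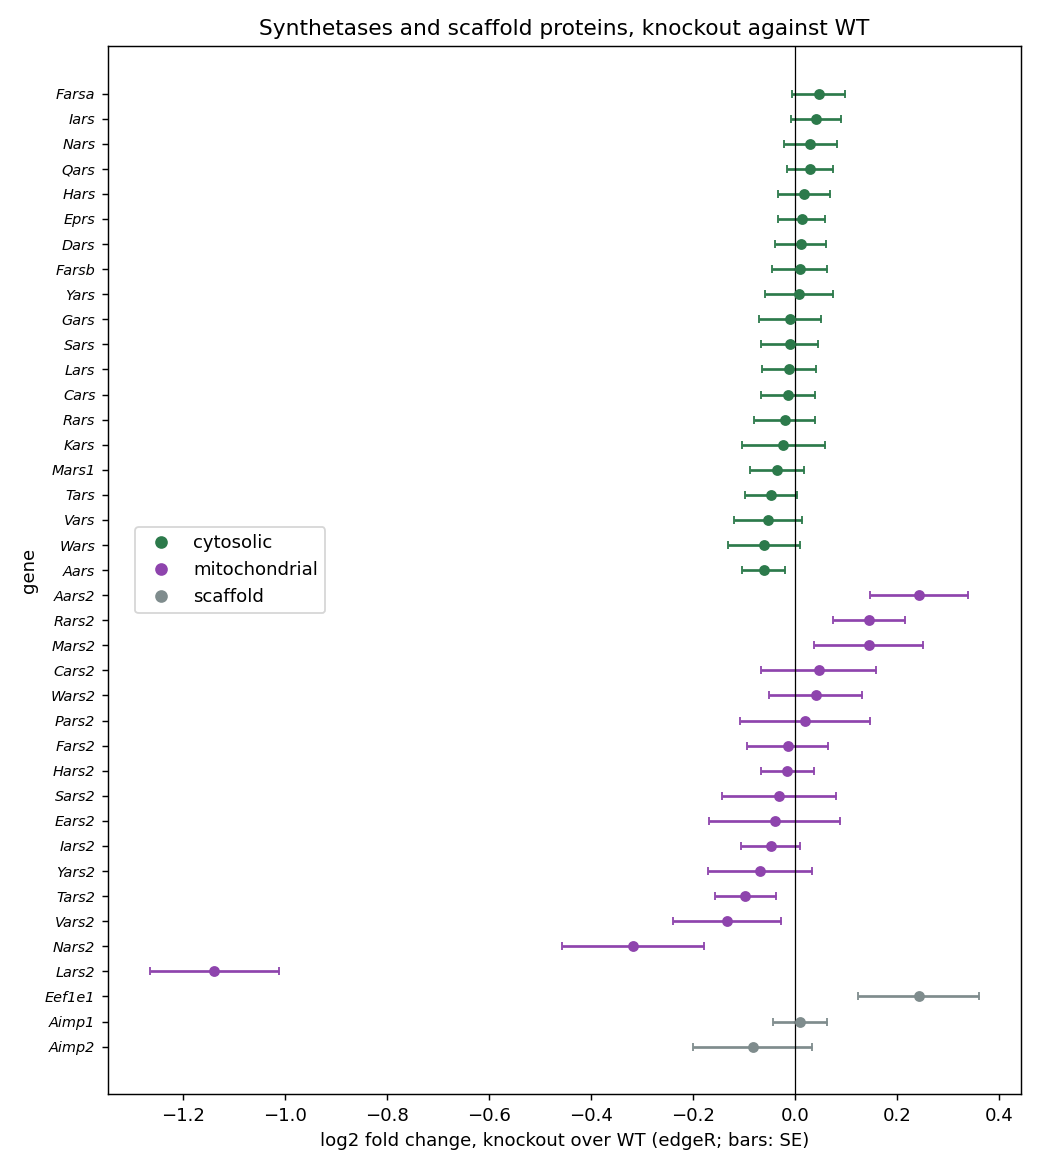
Log2 fold change (knockout over WT, edgeR) of each of the 39 genes, by compartment, with its standard error as a bar. Lars2 lies at -1.14 (SE 0.13), and the other 38 genes lie between -0.32 and 0.24.

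Cytosolic synthetases showed no called difference between genotypes, against 0.103% of all genes tested. Their fitted log2 fold changes ran from -0.06 to 0.05, with 9 above 0, 11 below and a median of -0.01. Summed over the 20 genes, the level was 1239.8, 1288 and 1289.7 CPM in knockout and 1248, 1254 and 1323 CPM in WT libraries. The sums overlapped, at 1272 ± 28.2 against 1275 ± 41.6 CPM (SD, n = 3 each). The SD of log2 CPM within a group had a median of 0.05 over these genes, against 0.11 over all genes tested. At the median the cytosolic genes thus had less spread, in a comparison not matched for abundance. The median SE of their log2 fold changes was 0.05, against 0.09 over all genes tested.

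Aars, the alanine enzyme (chromosome 8, 111033144 to 111057664), was the only cytosolic gene whose libraries did not overlap. It stood at 81.9, 82.8 and 81.4 CPM in knockout and at 87.1, 84.2 and 85.6 CPM in WT libraries. Every knockout library lay below every WT library, and the fitted change was -0.06 on the log2 scale (SE 0.04, with an edgeR adjusted p of 0.966). Its exons overlap those of Exosc6 on the same strand and of Gm24103 on the other over 15.1% of their length, and such reads cannot be told apart here. Wars, the tryptophan enzyme, which interferon is known to induce, had 48.8, 51.0 and 56.2 CPM in knockout and 51.4, 52.5 and 58.8 CPM in WT libraries (log2 fold change -0.06, SE 0.07). Vars, for valine, had 49.5, 56.3 and 55.1 CPM in knockout and 53.1, 54.1 and 59.7 CPM in WT libraries (-0.05, SE 0.07). Both genes varied as much within a genotype as between genotypes.

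At the other end, Farsa, the alpha subunit of the phenylalanine enzyme, had 38.9, 41.5 and 41.2 CPM in knockout and 38.5, 40.6 and 38.6 CPM in WT libraries (log2 fold change 0.05, SE 0.05). Iars, for isoleucine, had 55.4, 58.6 and 59.99 CPM in knockout and 56.8, 56.9 and 55.2 CPM in WT libraries (0.04, SE 0.05). The libraries overlapped for both. Nars had 159, 169 and 163 CPM in knockout and 152, 159 and 170 CPM in WT libraries (0.03, SE 0.05). Yars, of which 102 bases are near-identical to Tpbpa so that reads there are uncertain, had 19.9, 20.8 and 21.7 CPM in knockout and 21.8, 20.9 and 19.4 CPM in WT libraries (0.01, SE 0.07). The highest and the lowest cytosolic gene by length thus both overlapped between genotypes. Lars, the cytosolic leucine enzyme, had 47.9, 43.8 and 48.4 CPM in knockout and 47.9, 46.8 and 46.7 CPM in WT libraries (-0.01, SE 0.05), so the knockout libraries spanned the WT values. The other 12 cytosolic genes (Cars, Dars, Eprs, Farsb, Gars, Hars, Kars, Mars1, Qars, Rars, Sars and Tars) had fold changes between those of Aars and Farsa and overlapping libraries.

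The 5 cytosolic genes with a TGATGNAA match, in the stretches printed above, had log2 fold changes of -0.06 (Aars), -0.01 (Gars), 0.04 (Iars), -0.05 (Tars) and 0.01 (Yars). They lay on both sides of 0, and all had an adjusted p above 0.9 (edgeR).

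The multi-synthetase complex was measured through its 3 scaffold proteins and 8 of the cytosolic enzymes (Dars, Eprs, Iars, Kars, Lars, Mars1, Qars and Rars). None of these 11 was called, against 0.103% of all genes tested. Their median log2 fold change was 0.01, with 6 above 0 and 5 below. Their summed level was 599 ± 6.49 CPM in knockout and 595 ± 18.3 CPM in WT libraries (SD, n = 3 each). The 12 cytosolic enzymes outside the complex had a median of -0.01. Aimp1, the scaffold whose released form is known as a cytokine, had 44.3, 47.3 and 45.4 CPM in knockout and 45.5, 43.4 and 47.2 CPM in WT libraries (log2 fold change 0.01, SE 0.05). Aimp2, the core scaffold, had 6.19, 5.49 and 6.58 CPM in knockout and 6.72, 6.29 and 6.32 CPM in WT libraries (-0.08, SE 0.12). Exons of Eif2ak1 on the opposite strand cover 29.4% of those of Aimp2. Eef1e1 had 10.4, 9.42 and 10.99 CPM in knockout and 10.1, 8.14 and 7.79 CPM in WT libraries (0.24, SE 0.12, adjusted p = 0.932, edgeR). Its highest WT library lay above the lowest knockout library.

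Without Lars2, the mitochondrial enzymes were as level as the cytosolic ones in sum. The other 15 genes summed to 220.4, 226 and 217 CPM in knockout and to 216, 225 and 227 CPM in WT libraries, which overlapped. Their median log2 fold change was -0.02, with 6 above 0 and 9 below. Of the 15, 0 were called, against 0.103% of all genes tested. Single genes spread more widely than cytosolic ones, from -0.32 to 0.24, and the median SE was 0.10 against 0.05. These genes are also the less abundant ones.

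Aars2, the mitochondrial alanine enzyme, had 10.5, 10.3 and 10.4 CPM in knockout and 9.77, 8.46 and 8.15 CPM in WT libraries. Every knockout library lay above the WT libraries, at 0.24 on the log2 scale (SE 0.10, unadjusted p = 0.0305, adjusted p = 0.908, edgeR). Rars2, for arginine, had 13.8, 14.8 and 14.5 CPM in knockout and 13.2, 12.7 and 13.1 CPM in WT libraries. These did not overlap either, at 0.15 (SE 0.07, adjusted p = 0.932, edgeR). Mars2, for methionine, had 8.57, 8.46 and 8.18 CPM in knockout and 8.31, 7.81 and 6.72 CPM in WT libraries (0.14, SE 0.11), with the highest WT library among the knockout values.

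Lower values in the knockout were seen for Nars2, which had 3.71, 3.30 and 3.77 CPM there and 4.30, 4.27 and 4.85 CPM in WT libraries. The genotypes did not overlap, and the fitted value was -0.32 (SE 0.14, unadjusted p = 0.0473, adjusted p = 0.908, edgeR). Vars2, for valine, had 8.47, 9.59 and 8.25 CPM in knockout and 9.02, 10.7 and 9.18 CPM in WT libraries (-0.13, SE 0.11), which overlapped. Tars2, for threonine, had 22.2, 21.4 and 21.6 CPM in knockout and 22.5, 22.8 and 24.5 CPM in WT libraries (-0.10, SE 0.06), which did not overlap. The fold changes of the other 9 mitochondrial genes (Cars2, Ears2, Fars2, Hars2, Iars2, Pars2, Sars2, Wars2 and Yars2) lay between -0.07 and 0.05, and their libraries overlapped. Iars2 shares 24.2% of its exon length with Rab3gap2 and 2010103J01Rik on the opposite strand.

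Lars2 (ENSMUSG00000035202, chromosome 9, 123366927 to 123462666, + strand, GRCm38) stood at 200.3, 178 and 165 CPM in knockout libraries 1 to 3 and at 491, 365 and 342 CPM in WT libraries 1 to 3. Every knockout library lay below every WT library, and WT replicate 1 stood above the other WT libraries. The means were 181 ± 17.8 CPM in knockout and 399 ± 80.0 CPM in WT libraries (SD, n = 3 each). On the log2 scale it fell by 1.14 (SE 0.13, with an edgeR adjusted p of 0.0137). In bulk RNA, fewer cells that express a gene and less RNA per cell cannot be told apart. The call was lost without knockout replicate 2 (adjusted p = 0.123) and without knockout replicate 3 (adjusted p = 0.134, both edgeR), with log2 fold changes of -1.13 and -1.08. Lars2 alone made up 69.4%, 61.8% and 60.1% of the summed mitochondrial synthetase CPM in WT libraries 1 to 3 and 47.6%, 44.1% and 43.2% in knockout libraries 1 to 3. With Lars2 included, the summed mitochondrial level was 402 ± 19.6 CPM in knockout and 622 ± 74.0 CPM in WT libraries (SD, n = 3 each), without overlap.

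No other annotated gene overlaps the exons of Lars2. Its level over the 6 libraries was compared with that of every tested gene by Pearson's r of log2 CPM, as a description over libraries that share the genotype difference. The 5 most alike genes were Gm23935 (r = 0.999), CT010467.1 (0.988), Trim58 (0.986), Rims3 (0.986) and Fam196b (0.985). Counts per library were only 4 to 16 for Trim58, 38 to 106 for Rims3 and 13 to 45 for Fam196b. CT010467.1 is annotated as ribosomal RNA (chromosome 17, 39846353 to 39848827), and Gm23935 as a miRNA of 57 bases (chromosome 16, 11144125 to 11144181, + strand). Among the synthetases the highest r with Lars2 was that of Aars (0.943), which ranked 48 among all genes, followed by Nars2 (0.786), and the lowest was that of Rars2 (-0.867).

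Gm23935 had 324, 291 and 284 CPM in knockout and 803, 602 and 565 CPM in WT libraries (log2 fold change -1.13, SE 0.12, adjusted p = 0.0100, edgeR). The order of the 6 libraries was that of Lars2. The ratio of Lars2 to Gm23935 was 0.617, 0.612 and 0.581 in knockout and 0.612, 0.607 and 0.605 in WT libraries, so the ratios overlapped while each gene's own levels did not. The annotated sequence of Gm23935, shown because its counts moved with those of Lars2, is 73.7% G and C.
Gm23935 chr16:11144125-11144181, + strand: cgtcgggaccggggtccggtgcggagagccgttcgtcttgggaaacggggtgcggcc

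CT010467.1 had 1114, 960.4 and 1054 CPM in knockout and 2329, 1718 and 1708 CPM in WT libraries (log2 fold change -0.88, SE 0.11, adjusted p = 0.0302, edgeR). The ratio of Lars2 to CT010467.1 was 0.180, 0.186 and 0.157 in knockout and 0.211, 0.213 and 0.2003 in WT libraries, without overlap. The mitochondrial ribosomal RNAs did not follow Lars2, with log2 fold changes of -0.08 for mt-Rnr1 and -0.0060 for mt-Rnr2 and overlapping libraries. Gm26917, a non-coding gene next to CT010467.1, had the opposite direction, with 103, 89.9 and 92.7 CPM in knockout and 76.4, 77.4 and 81.1 CPM in WT libraries (0.28, SE 0.06, adjusted p = 0.303, edgeR). A BLAST search found 0 alignments between the transcripts of Lars2 and those of 7 annotated genes (CT010467.1, Gm42418, AY036118, Gm26917, mt-Rnr1, mt-Rnr2 and Gm23935), and the longest run of identical bases was 8 with Gm23935 and 13 with CT010467.1. The full precursor of cytosolic ribosomal RNA was not used in that search, so it does not cover sequence of the precursor outside these genes. Counts are per gene, so the place of the Lars2 reads within the gene is not known, and the part of ribosomal RNA reads in its count was not tested.

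**Figure D4:**
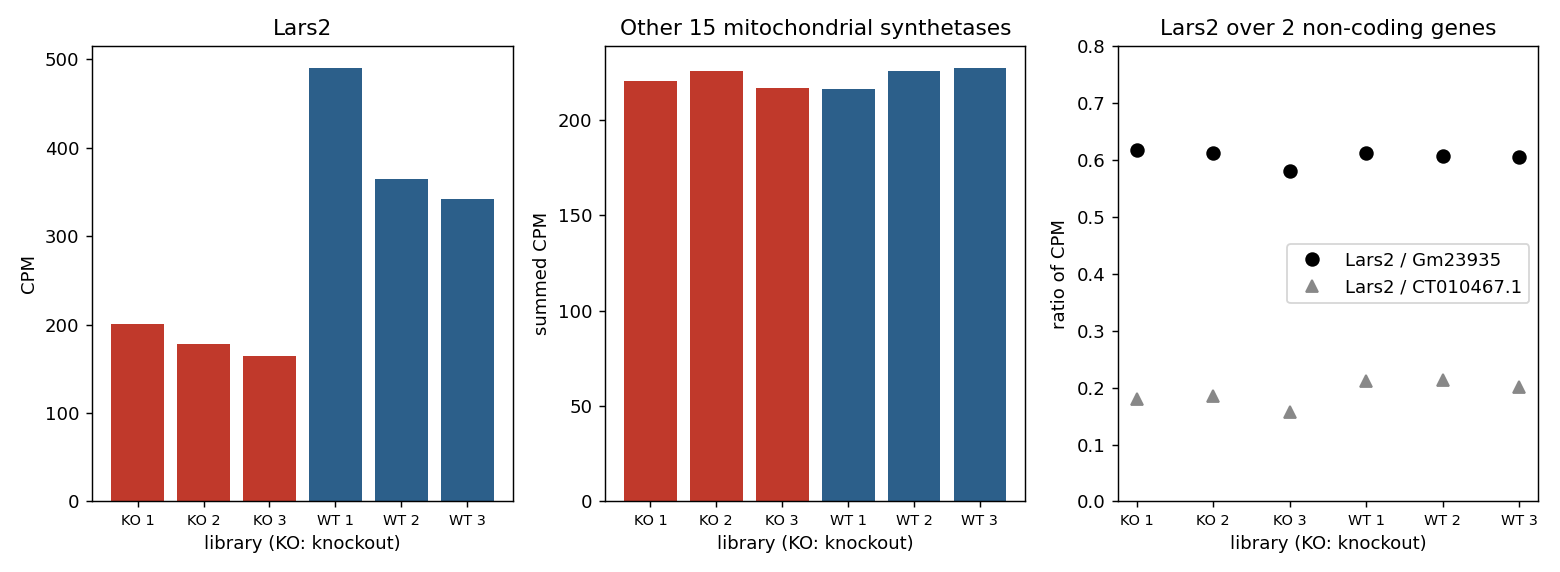
Level of Lars2 (CPM) and summed CPM of the other 15 mitochondrial synthetases in each of the 6 libraries. The last panel shows the ratios of Lars2 to Gm23935 and to CT010467.1. Lars2 is lower in all knockout libraries than in any WT library, and the sum of the other 15 stays between 216 and 227 CPM. The ratio to Gm23935 overlaps between genotypes, and that to CT010467.1 does not.

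Genes around the synthetases in translation and amino acid supply gave no calls by edgeR, against 0.103% of all genes tested. In the amino acid response list, 26 of 30 genes were tested, 10 had log2 fold changes above 0 and 16 below, and the median was -0.04. Only Trib3, a pseudokinase induced under stress, had an unadjusted p under 0.05, at 0.72 (SE 0.32, adjusted p = 0.908, edgeR) and at most 1.30 CPM. The next were Shmt2, a mitochondrial serine enzyme (-0.12), Cebpb, a C/EBP factor (-0.25), and Psat1, of serine synthesis (-0.22), with adjusted p above 0.9. Atf4 itself, named for its role and outside the rule of smallest p, had 91.3, 97.3 and 95.6 CPM in knockout and 93.9, 104 and 99.9 CPM in WT libraries, which overlapped (-0.07, SE 0.05).

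The list of mitochondrial translation factors, with the glutamine route, was tested for 21 of 21 genes. Log2 fold changes of 6 were above 0 and of 15 below, with a median of -0.03. The smallest p was that of Mrpl58, a peptidyl-tRNA hydrolase of the mitochondrial ribosome, with 19.8, 21.6 and 20.4 CPM in knockout and 16.4, 17.8 and 18.4 CPM in WT libraries (0.23, SE 0.07, adjusted p = 0.734, edgeR). Next came Gtpbp3, a tRNA-modifying enzyme (0.14, unadjusted p = 0.0499, adjusted p = 0.917, edgeR), Tufm, the elongation factor that delivers tRNA (-0.12), and Mtrf1, a release factor (-0.29). Libraries of 3 of the 21 genes did not overlap, all higher in the knockout, against 5.73% of all genes. They were Mrpl58, Gtpbp3 and Gatc, an amidotransferase subunit (0.09, SE 0.05), which was named after its values were seen. All 8 cytosolic elongation genes were tested, with 2 above 0, 6 below and a median of -0.02. The smallest p there was that of Eef1akmt1, a methyltransferase of the elongation factor (0.19, SE 0.08, unadjusted p = 0.0314, adjusted p = 0.908, edgeR). The 10 accessory and editing genes had 5 above 0 and 5 below and a median of -0.0036, and Aarsd1, an editing protein, stood at 1.00 (SE 0.41, adjusted p = 0.908, edgeR) at no more than 0.571 CPM.

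Total counts ran from 24179548 to 31542741 per library. Tmem175 was at 14.3, 13.2 and 12.1 CPM in knockout and 32.8, 33.4 and 33.2 CPM in WT libraries, with reads outside the deleted part counted too, and Lyz2 had a log2 fold change of -0.89. Tmem175 (adjusted p = 6.01e-05) and Lyz2 (adjusted p = 0.00415, both edgeR) were called lower. All 8 macrophage markers were measured, with summed levels of 9271 to 10128 CPM in knockout and 9177 to 10263 CPM in WT libraries. The sum of 8 neutrophil markers was 692 to 741 CPM in knockout and 399.6 to 592 CPM in WT libraries, without overlap, and that of 6 lymphocyte markers was 2.33 to 3.88 and 4.89 to 6.00 CPM. S100a8 and S100a9 were the largest terms of the neutrophil sum (log2 fold changes 0.70 and 0.61) and did not overlap. Mpo, a granule enzyme of precursors, was lower without overlap (-0.76), Elane stood at -0.44, and Elane, Ly6g, Ngp, Camp and Ltf overlapped. Dendritic, mast and stromal sums overlapped between genotypes. Within the mast list Cpa3 (-0.96) and Mcpt8 (-0.64) were lower and Kit (0.23) was higher without overlap, while Prg2, the largest term, overlapped (-0.50). None of these cell type markers was called by edgeR, against 0.103% of all genes tested, and S100a8 came nearest (adjusted p = 0.0521, edgeR). The sum of 5 erythroid markers overlapped too, at 0.534 CPM or less with Hbb-bs at 0 in all libraries. The part of these neutrophil, lymphocyte and mast marker values in the Lars2 result was not tested.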

How the data were processed

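The authors deposited 1 table of raw counts per Ensembl gene for 6 libraries, and the submitters' processing notes name HISAT2, featureCounts and GRCm38. Tool versions, the strand setting and the release of the annotation were not given in the sources used here, so reads of overlapping genes on opposite strands cannot be told apart. Libraries were made with a SMARTER mRNA-Seq kit from TRIzol lysates per the labels' protocols. GENCODE M21 gave names and positions, and 55240 of 55421 IDs matched.

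Groups were taken from the sample titles. Total counts were 24179548 to 31542741. Counts were TMM-scaled, filtered with filterByExpr (13588 genes left) and tested with edgeR 4.0.16 (R 4.3.3), quasi-likelihood, two-sided, genotype as the only term, Benjamini-Hochberg over all genes, called under 0.05. The SE was derived from the F statistic. The test was tested on simulated data. CPM values are TMM-scaled, and SDs are over 3 libraries. Near-identical sequence (at least 98% over 100 bases, BLAST 2.17.0) was found for 2 members, Eprs and Yars.

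Values by library are given for members at p under 0.05, the 3 largest changes per compartment and direction, and those without overlap between genotypes. They are also given for the highest and lowest per length, both leucine enzymes and the scaffold proteins. Up to 4 genes of smallest p per pathway list are named, mostly without values by library. Members, lists and rules were chosen with earlier results of these data known. Alternatives were other scalings and filters, DESeq2 1.42.0, limma-voom (limma 3.58.1), a replicate block and leaving out each library. No 2 libraries of a genotype agreed within sampling noise (chi-square over its degrees of freedom 3.66 to 17.6).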

Additional observations from a re-analysis of the deposited data

How the results depend on the processing

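Lars2 kept its direction under all 14 alternatives and its call under all but leaving out knockout replicate 2 or 3, and the log2 fold change was -1.24 to -0.96 when 1 library was left out, nearest 0 without WT replicate 1. Its edgeR adjusted p ran from 6.17e-26 without a filter on low counts to 0.134 without knockout replicate 3. Members called lower numbered 0 to 1 without 1 library. Genes called lower over the whole table were 112 without a filter, 5 with a mean of at least 10 CPM, 30 by DESeq2 and 4 to 10 without 1 library, against 12, with 10 only without knockout replicate 1 and at most 7 without any other. Genes called higher were 39, 0, 10 and 0 to 2, against 2. At 10 CPM, 29 members remained in the test. The cytosolic median was 0.034 with library totals, which moved the median of all genes to 0.042. Levels per length by longest transcript were 16.7 (cytosolic) and 3.64 CPM per kb (mitochondrial). For 16 other members described by library, all but Tars2, 208 of 218 values kept direction and side of the threshold and 10 changed sign. Those were Lars with library totals (0.030) and, when 1 library was left out, Lars (range -0.038 to 0.034), Nars (-0.0061 to 0.072), Vars (-0.088 to 0.0042), Wars (-0.12 to 0.00076), Yars (-0.037 to 0.045) and Aimp1 (-0.022 to 0.038).

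Same-numbered libraries deviated together with correlations of 0.057, -0.123 and 0.039, so the numbers were not taken as pairs. With the replicate block Lars2 had a log2 fold change of -1.13 (adjusted p = 0.000242, edgeR), 1 member was called lower, and the whole table had 14 genes lower and 3 higher.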
